A study of Mus musculus with 4 samples.

Results

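Of 43706 autosomal regions that carried an ATAC-seq peak in all 4 libraries, 1397 ranked lower in macrophages that lack the histone variant H3.3 than in wild-type macrophages. They were chosen by peak area. Within each library every peak was ranked by its area, the sum of the −log10 p signal under the peak, and the rank was written as a percentile from 0 for the weakest peak to 100 for the strongest. A shared region was taken as falling when the lower of its 2 WT percentiles exceeded the higher of its 2 cKO percentiles by 20 points or more, and this excess is called the gap. The 1397 falling regions were 3.2% of the shared regions, and the same rule in the opposite direction took 657 regions, or 1.5%. Since percentiles chose the members, their lower rank in cKO is the definition of the set and no finding, and no test was made of it.

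The cells were bone marrow-derived macrophages (BMDMs), macrophages grown from marrow progenitors and used on day 7 of culture (the labels give 6 to 8 days), in medium with 10% fetal bovine serum and 20% conditioned medium of the L929 fibroblast line, a source of macrophage growth factor. The mice were of C57BL/6 background and 8 to 10 weeks old. All carried loxP sites around exon 2 of H3f3a and around exons 1 to 4 of H3f3b, the 2 genes that encode H3.3. Both genotypes were therefore H3f3a fl/fl and H3f3b fl/fl. The WT mice had no Cre. The cKO mice were also LysM cre/cre, with Cre in both copies of the lysozyme locus, which is active in myeloid cells. There were 2 libraries of each genotype, labelled as biological replicates. The study notes that deletion of H3f3b was complete in some cKO samples and partial in others, and WT and cKO also differ in Cre itself, so that an effect of Cre and one of the deletion cannot be told apart here.

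The deposited peak lists held 55742 and 64939 peaks in the WT libraries and 51955 and 60884 in the cKO libraries. The read depth behind them is unknown, so the length of a list and the area of its peaks cannot be set against the number of reads. The promoters of 10 of 11 macrophage marker genes carried a peak in every library, and the window at Spi1, which encodes the macrophage factor PU.1, had none in any. None of 8 mast cell and basophil markers and none of 10 fibroblast markers had an open promoter in any library, whereas 4 or 5 of 11 neutrophil markers, 3 or 4 of 10 B cell markers, 3 of 10 erythroid and megakaryocyte markers and 1 of 10 T cell markers did in each library.

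H3.3 is the form of histone H3 that cells place into chromatin outside DNA replication, mostly at active genes, promoters and enhancers. ATAC-seq uses a transposase that inserts into DNA not covered by nucleosomes, so its peaks mark open chromatin at promoters and at distal elements such as enhancers. In macrophages many distal elements are bound by PU.1 together with C/EBP, RUNX and AP-1 family factors, and stimulus-dependent elements often hold sites of NF-kB or of interferon regulatory factors (IRFs). In bulk samples, fewer cells with an open element and a less open element in every cell cannot be told apart.

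Sequences are shown for 4 of the falling regions with the largest gaps, for 3 that hold AP-1 or NF-kB letters, letters that falling and rising regions held in unequal shares, and for 2 near genes named in the study. Each is the 201 bases centred on a summit, on the plus strand of mm10 (GRCm38), read from RefSeq. Capitals mark matches to any of 18 searched motifs on either strand, and a match is a description of letters, not a bound site.
intergenic region nearest to Sde2 (chr1:180835307-180835507): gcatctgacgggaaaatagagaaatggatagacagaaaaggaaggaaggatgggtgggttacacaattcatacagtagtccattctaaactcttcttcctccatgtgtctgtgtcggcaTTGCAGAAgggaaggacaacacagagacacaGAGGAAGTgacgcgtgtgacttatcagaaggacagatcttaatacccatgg
intergenic region nearest to Cp (chr3:19953994-19954194): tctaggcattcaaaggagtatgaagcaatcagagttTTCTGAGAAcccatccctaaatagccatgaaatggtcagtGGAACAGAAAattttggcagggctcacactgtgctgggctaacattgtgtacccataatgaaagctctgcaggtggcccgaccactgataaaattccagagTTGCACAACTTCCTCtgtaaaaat
intergenic region nearest to Insc (chr7:115019444-115019644): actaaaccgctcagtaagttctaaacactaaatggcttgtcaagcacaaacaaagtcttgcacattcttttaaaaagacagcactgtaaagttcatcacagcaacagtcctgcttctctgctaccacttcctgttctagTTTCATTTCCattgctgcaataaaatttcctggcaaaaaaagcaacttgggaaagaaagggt
intergenic region nearest to Cdh26 (chr2:178565472-178565672): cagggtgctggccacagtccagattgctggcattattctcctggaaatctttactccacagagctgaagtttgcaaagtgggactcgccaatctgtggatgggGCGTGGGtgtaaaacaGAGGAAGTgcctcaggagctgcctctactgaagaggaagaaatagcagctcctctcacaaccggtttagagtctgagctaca
region nearest to Tnfaip2 (chr12:111456034-111456234): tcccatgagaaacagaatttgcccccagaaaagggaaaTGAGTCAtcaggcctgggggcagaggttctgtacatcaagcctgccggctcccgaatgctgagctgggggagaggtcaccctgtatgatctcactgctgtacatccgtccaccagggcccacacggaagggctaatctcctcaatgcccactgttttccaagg
intron of Fxyd2 (chr9:45405707-45405907): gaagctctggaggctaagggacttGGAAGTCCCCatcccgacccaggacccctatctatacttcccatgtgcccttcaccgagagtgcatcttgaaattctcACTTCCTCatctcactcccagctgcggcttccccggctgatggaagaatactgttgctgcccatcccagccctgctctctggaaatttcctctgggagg
intron of Rassf8 (chr6:145767098-145767298): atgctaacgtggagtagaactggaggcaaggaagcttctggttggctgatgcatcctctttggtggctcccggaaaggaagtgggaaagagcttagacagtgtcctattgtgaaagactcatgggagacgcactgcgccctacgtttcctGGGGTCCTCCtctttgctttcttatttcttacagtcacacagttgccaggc
intron of Lpin1 (chr12:16588738-16588938): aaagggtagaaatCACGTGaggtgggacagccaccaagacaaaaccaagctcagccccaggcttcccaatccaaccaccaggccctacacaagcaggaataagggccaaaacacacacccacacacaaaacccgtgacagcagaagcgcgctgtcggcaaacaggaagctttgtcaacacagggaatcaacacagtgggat
intron of Siva1 (chr12:112648159-112648359): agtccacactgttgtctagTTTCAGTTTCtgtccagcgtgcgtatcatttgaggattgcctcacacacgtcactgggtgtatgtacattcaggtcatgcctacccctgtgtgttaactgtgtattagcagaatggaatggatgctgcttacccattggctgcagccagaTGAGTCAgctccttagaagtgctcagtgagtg

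The first of these holds TTGCAGAA, which matches the C/EBP letters (TTGCNNAA), and a PU.1 match (GAGGAAGT or its reverse complement), and the Cdh26 region holds a PU.1 match beside an EGR match (GCGTGGG). The Tnfaip2 region has an AP-1 match (TGACTCA or TGAGTCA), the Fxyd2 and Rassf8 regions each have a match to the NF-kB motif, and the Lpin1 region has an E-box (CACGTG).

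The falling regions were of middle rank in WT and of low rank in cKO. Their median percentile was 59.0 and 63.4 in the 2 WT libraries and 19.3 and 28.5 in the 2 cKO libraries. Median peak area was 826 and 967 in WT against 305 and 379 in cKO, where the smallest area listed lies just above 200. A peak in every library and a lower rank by area in cKO are what the rule requires of a member. Both cKO percentiles were under 20 in 393 members, or 28.1%, and under 50 in 1243. In WT, 106 members were at 80 or above in both libraries and 227 were under 50 in both. The share of shared regions that fell was 1.72% where the lower WT percentile was 20 to 40, 6.39% from 40 to 60, 5.10% from 60 to 80 and 0.986% from 80 to 100.

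**Figure D1:**
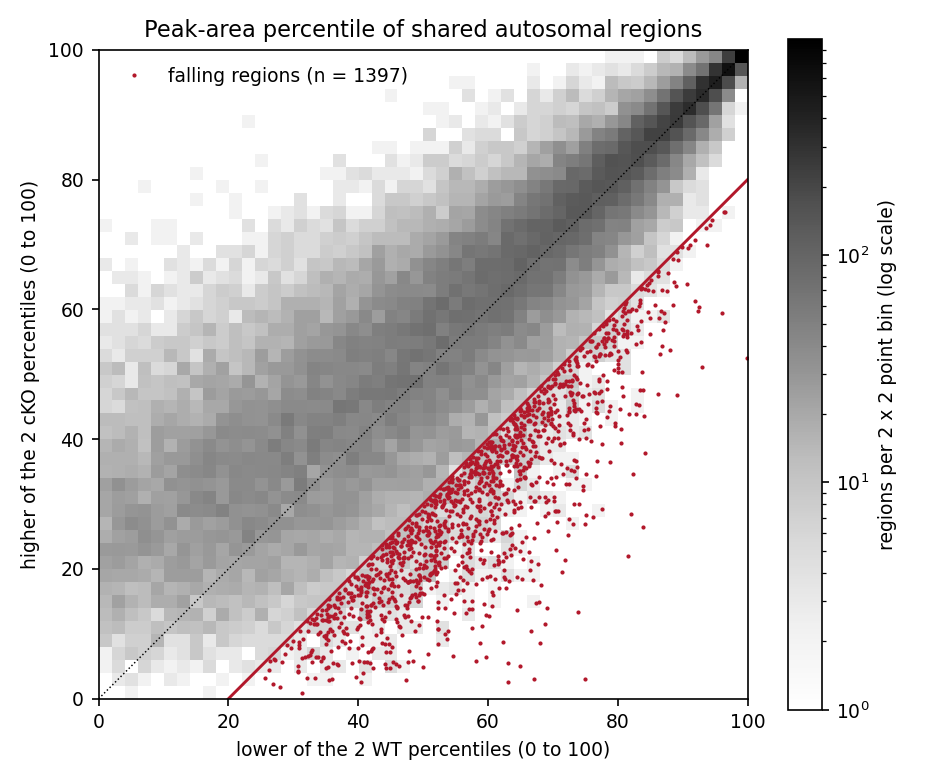
Shared autosomal regions by the lower of their 2 WT percentiles (horizontal axis) and the higher of their 2 cKO percentiles (vertical axis), with shading for the number of regions per bin on a log scale, a dotted line of equality and a red line at the 20-point limit. The 1397 falling regions (red points) lie beyond that line, and 1243 of them have both cKO percentiles under 50.

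The gap had a median of 26.2 points and quartiles of 22.6 and 31.8, and the highest was 71.9. It was 30 or more in 439 members, 40 or more in 118 and 50 or more in 23, against 184, 47 and 13 of the rising regions, whose median gap was 25.5 points. The 2 WT percentiles of a member differed by a median of 4.07 points and the 2 cKO percentiles by 7.54. The second library of each genotype ranked members higher than the first did, in 85.6% of members for WT and 80.2% for cKO, as it did over all shared regions (90.3% and 87.6%). At the limit, the regions at Cacnb4 and Gm10643 lay just inside with gaps of 20.01 points each, and those at Arfgap1 and Dupd1 just outside with 19.99. There were 125 members within 1 point inside the limit and 173 regions within 1 point outside it.

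Other columns of the same lists followed the area, and since they come from the same reads they are no independent measure. The summit −log10 p of both cKO libraries was below that of both WT libraries in 1385 members, or 99.1%, against 27.2% of all shared regions. The strongest cKO peak of a member was 0.667 times as wide as the WT one (median), against 0.961 over all shared regions and 1.39 over rising regions. Ranked by area per base instead, 840 of the 1397 still met the rule and 190 had a gap below 0, so the call at these regions did not hold on that scale. The 4 summits of a member lay within a median of 33 bp of each other.

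The balance of falling over rising regions depended on list length and on single libraries, and is given as such. Falling regions were 68.0% of the 2 sets. They were 50.3% (1502 and 1482) when all lists were cut to equal length and 51.8% when percentiles were taken among shared regions alone. Without the second WT library they were 38.9% (1460 and 2290), and without the second cKO library 85.9% (4350 and 715). Both WT percentiles lay above both cKO percentiles in 15513 shared regions (35.5%), and both cKO percentiles above both WT in 9734 (22.3%).

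The largest gap was in exon 3 of the 3 exons of Ankrd66 (chr17:43534720-43535281), a gene for an ankyrin-repeat protein. Its WT percentiles were 75.0 and 77.1, its cKO percentiles were 1.00 and 3.04, and its peak areas were 1272 and 1444 against 204 and 214. The next was an intergenic region at chr1:180835192-180836023, with WT percentiles of 67.1 and 76.2 against 2.46 and 3.07, whose nearest start was that of Sde2, a gene of the replication stress response. A region 2.95 kb from the start of Cp (ceruloplasmin, a copper-carrying ferroxidase) stood at 64.7 and 63.0 in WT against 0.420 and 2.62 in cKO. In these 3 regions both cKO peaks were among the weakest of their lists and the genotypes did not overlap, as the rule requires.

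Others of the 20 largest gaps lay at genes of varied function. A region in intron 2 of Fxyd2, a regulatory subunit of the sodium pump, had WT percentiles of 86.0 and 83.9 against 14.2 and 26.5 in cKO. A region in intron 1 of Osbpl2, an oxysterol-binding protein family member, had 68.9 and 70.6 against 6.44 and 11.5. The region near Tnfaip2, a gene induced by tumour necrosis factor, had 68.0 and 68.9 against 0.858 and 8.52. Arid1a, a subunit of the SWI/SNF chromatin remodeller, had an intergenic region 18.2 kb from its start at 59.6 and 65.5 in WT against 1.07 and 6.39 in cKO. In intron 41 of Stab2, a scavenger receptor for hyaluronan, the values were 64.5 and 65.8 against 5.00 and 13.6.

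**Figure D2:**
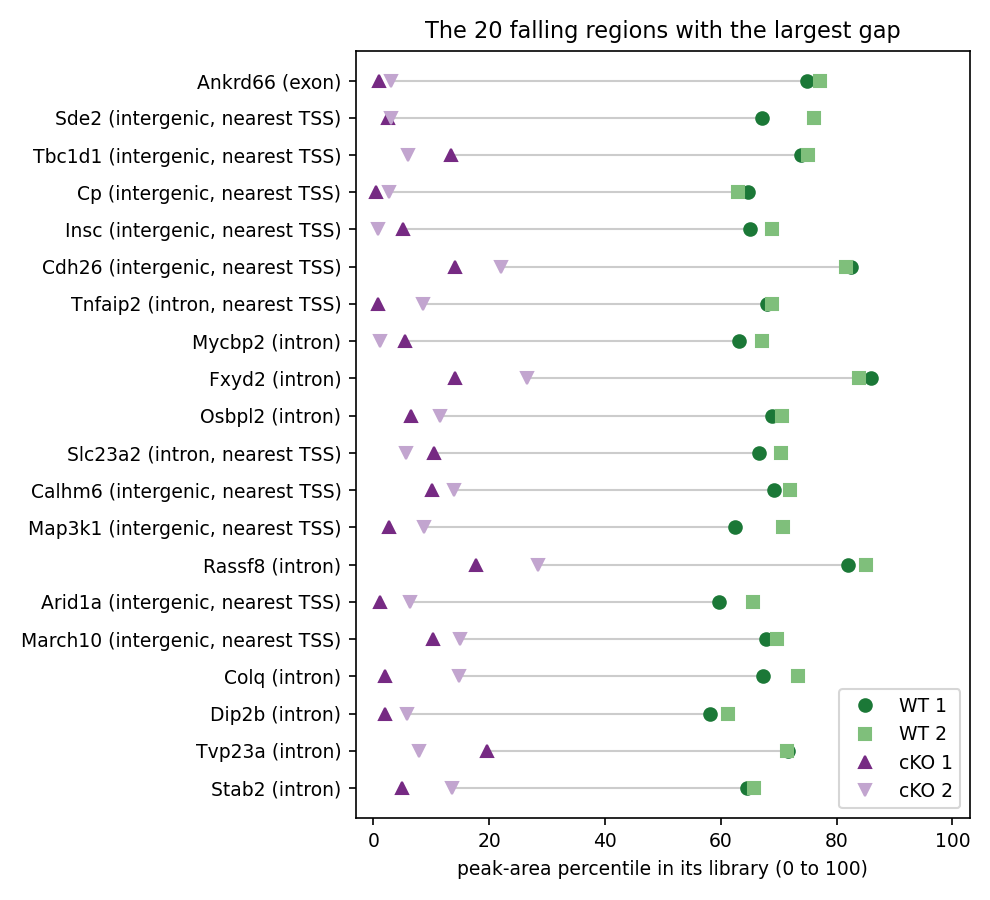
Percentile of peak area in each of the 4 libraries for the falling regions with the largest gaps on the horizontal axis, with 1 line per region and a grey bar for the gap. The lower WT point and the higher cKO point are separated by 50.8 to 71.9 percentile points in these 20 regions.

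Promoters were few. With a promoter set as 1 kb before to 100 bp after a transcription start, 82 members lay in one, which is 5.87% (95% Wilson interval 4.75 to 7.23) against 20.1% of all shared regions and 9.28% of rising regions. These intervals cover counting error over regions of the same 4 libraries and not the spread between mice. Introns held 768 members, or 55.0% (52.4 to 57.6), against 44.5% of all shared regions, and 467 lay between genes (33.4% against 28.0%). Read the other way, 0.932% of 8797 shared promoter regions fell, against 2.48% of exonic, 3.95% of intronic and 3.82% of intergenic ones. Among shared regions with a lower WT percentile of 20 or more, which are those that could meet the rule, 21.8% were promoters. Promoters ranked high, with a median percentile of 86.0 over all protein-coding genes with a promoter called in all 4 libraries. Of all shared regions with a lower WT percentile of 80 to 100, 0.986% fell. The classes were not matched on WT rank, so the part of rank in the low promoter share was not tested.

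Distances were taken to the nearest start of a protein-coding gene. Their median was 24128 bp for members, against 13040 bp over all shared regions and 24905 bp over rising regions. Beyond 100 kb from any such start lay 222 members (15.9% against 11.0%), and 27.8% were within 10 kb against 45.3%. The medians of falling and rising regions were thus close to each other and far above that of all shared regions. Promoter members with large gaps included those at a start of the long noncoding gene Gm32568 (71.3 and 64.4 against 18.8 and 16.8) and at Socs2, an inhibitor of cytokine signalling (56.2 and 60.2 against 16.7 and 16.6).

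The promoters of the genes that hold members were compared with those of all genes. An intronic or exonic member was found in 671 protein-coding genes, and 543 of these had a promoter region called in all 4 libraries, of which 21 fell (3.87%) and 0 rose, against 63 (0.578%) and 42 (0.385%) of all 10905 protein-coding genes with such a promoter. In 17 of the 21 the promoter region was the intronic or exonic member itself, whose edge reached into the promoter window. The mean WT percentile less the mean cKO percentile at these promoters had a median of 1.24 points (quartiles −0.104 and 4.07), against 0.380 (−1.30 and 2.95) over all of them. Their median percentile was 88.5 against 86.0, near the top of the scale, where a rank has little room to rise. Lpin1, a phosphatidate phosphatase of glycerolipid synthesis, held both: its intron 1 region at chr12:16588546-16589198 fell from 68.2 and 76.1 to 17.2 and 17.6, and its promoter region at chr12:16589351-16590046 did not, with 58.4 and 61.7 against 58.1 and 67.2.

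The letters around the summits differed between falling and rising regions, and in percentage points the difference was widest for AP-1. Outside promoters, AP-1 letters (TGACTCA) were within the 201-bp window of 8.59% of 1315 falling regions (Wilson interval 7.20 to 10.2), 38.3% of 596 rising regions (34.4 to 42.2) and 16.7% of all 34909 shared regions. RUNX letters (AACCACA) were at 7.91% (6.57 to 9.49), 15.3% and 9.47%, so that falling and all shared regions were not separated by counting error, and at a limit of 30 points their order over all classes turned (9.57% of falling against 8.24% of all shared regions). The NF-kB motif ran the other way, at 8.75% of falling (7.34 to 10.4), 2.18% of rising (1.28 to 3.70) and 4.62% of all shared regions, and so did the composite ETS-IRF motif, at 9.81%, 4.03% and 6.49%. The motif of CTCF, which anchors chromatin loops, was in 0.304% of falling, 3.36% of rising and 4.03% of all shared regions. Over all classes of region, AP-1 was in 8.23% of falling and 35.9% of rising regions.

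The motifs of the macrophage-determining factors were closer together. PU.1 letters (GAGGAAGT) were in 13.6%, 10.4% and 12.9% of falling, rising and all shared regions outside promoters, and C/EBP letters in 15.3%, 11.9% and 13.4%, with intervals of falling and all shared regions that overlapped. The ISRE, the element of interferon-stimulated genes, was in 4.79%, 6.88% and 4.33%, and the KLF/SP letters (GGGCGGG) in 3.73%, 3.36% and 6.64%. Read the other way, 7.13% of 1614 shared regions with an NF-kB match outside promoters fell, 5.69% of 2266 with ETS-IRF, 1.94% of 5831 with AP-1 and 0.284% of 1408 with CTCF, against 3.77% of all 34909. Base composition differed little outside promoters, with a median GC content of 47.8% in falling and 48.3% in all shared regions. None of the 18 motifs was found in 437 members (31.3% against 28.2%).

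**Figure D3:**
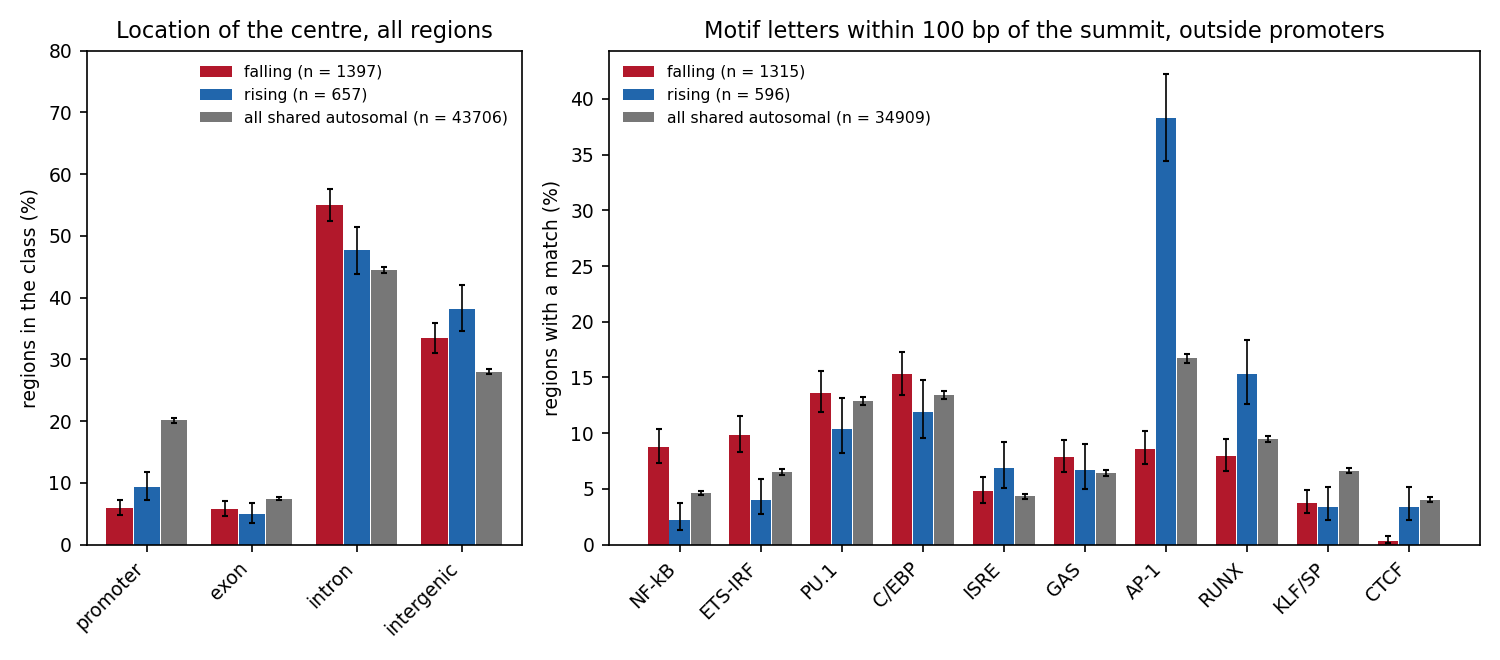
Bars of the share of falling, rising and all shared regions by the location of their centre (left) and, outside promoters, with a match to each motif within 100 bp of the summit (right), in percent, with 95% Wilson intervals. Falling regions have the lowest AP-1 share (8.59%) and rising regions the highest (38.3%), while NF-kB and ETS-IRF are in the opposite order.

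Members lay near each other and near regions called in WT alone. Within 10 kb of a member was another member in 86 cases, which is 6.16% (5.01 to 7.54) against 3.53% of all shared regions, and a rising region in 9, which is 0.644% against 1.66%. A region with a peak in both WT libraries and in no cKO library was within 10 kb of 256 members (18.3% against 11.7%), and one with a peak in both cKO libraries alone of 31 (2.22% against 5.54%). Rising regions showed the same in the opposite direction. Of 657 rising regions, 6.85% (5.16 to 9.04) had another rising region within 10 kb, against 1.66% of all shared regions. A region called in both cKO libraries alone lay within 10 kb of 15.4% of them, against 5.54%. Nearness to the same kind was thus not particular to falling regions. Within 50 kb, 314 members had another member (22.5% against 14.2%). There were 25 runs of 3 or more members spaced by at most 50 kb, with 82 members and 0 rising regions among them. The runs were picked for their members and held few other shared regions. With 1.5% of all shared regions rising, the 0 is a description and no finding.

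In 4 of these runs every shared region fell. One held 3 regions within 5.04 kb at the adjoining genes Wsb2 and Rfc5, the latter a subunit of the clamp loader of DNA replication. Their WT percentiles were 67.9 and 72.9, 59.6 and 65.6, and 75.3 and 75.4, and their cKO percentiles 14.3 and 34.2, 5.45 and 12.9, and 20.0 and 41.6. Another lay 10.7 to 20.1 kb from the start of Ccl5, a chemokine that draws T cells and monocytes, with 50.5 and 51.2, 49.0 and 50.1, and 42.2 and 41.7 in WT against 7.24 and 25.9, 17.3 and 14.9, and 2.82 and 18.1 in cKO. A run of 5 members among 11 shared regions ran from near BC017158 into introns of Rgs10, a regulator of G protein signalling. One run of 3 members among 8 shared regions lay between Cebpb, the C/EBP beta gene, and Ptpn1, a tyrosine phosphatase.

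The start most often nearest to members was that of Cited2 (chr10:17723218-17725674, plus strand), a coregulator that binds CBP and p300. Of 32 shared regions nearest to it, 11 fell (34.4%) and 0 rose, and 22 had both WT percentiles above both cKO. The 11 members lay 25.2 to 971.5 kb upstream with gaps of 20.2 to 29.7 points, so none was far past the limit. The nearest of them had 76.5 and 78.8 in WT against 47.4 and 52.7 in cKO, and one 31.4 kb upstream had 42.4 and 45.9 against 1.17 and 16.1. The Cited2 promoter region itself stayed at the top of all lists, with 99.6 and 99.8 in WT against 99.0 and 99.4 without H3.3. A region 4.56 kb downstream went the other way without overlap, with WT percentiles of 24.0 and 42.9 against 58.8 and 52.4. This start was picked for its count, which is therefore a description, and a nearest start is not a known target.

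**Figure D4:**
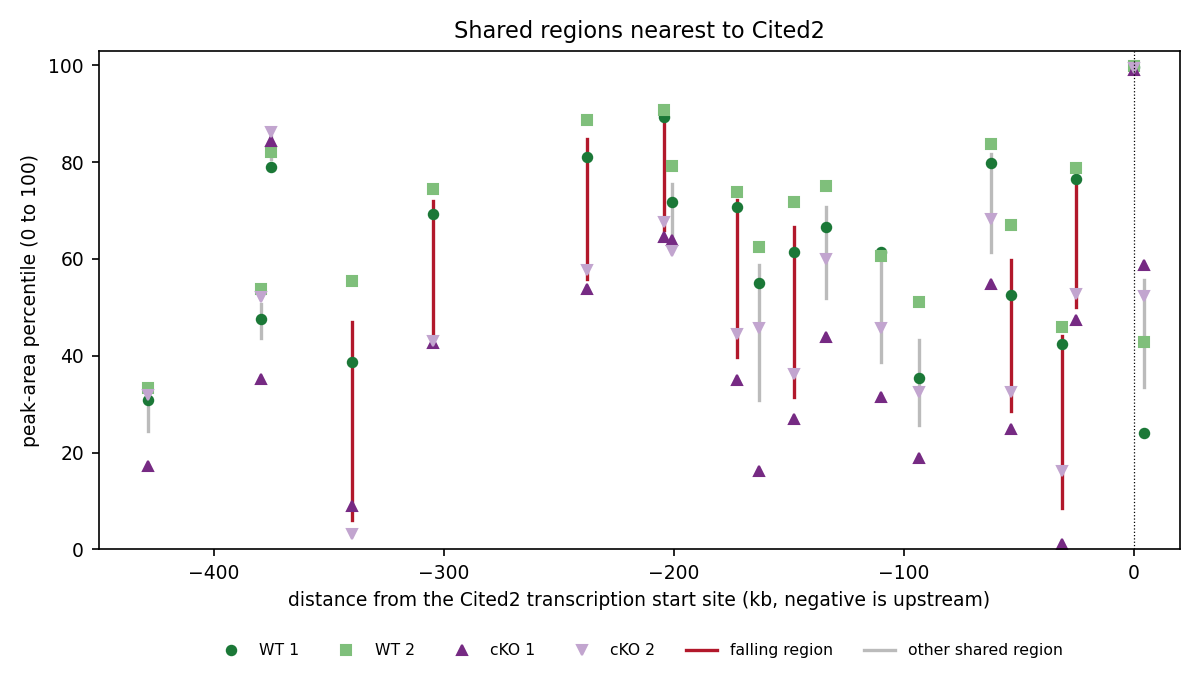
Percentile of peak area in the 4 libraries (vertical axis) for the shared regions nearest to the Cited2 start and within 450 kb of it, by distance from that start in kb (horizontal axis, negative upstream), with a line between the genotype means, red for falling regions. The falling regions shown lie 25.2 to 340.0 kb upstream, a further pair lies beyond the plot, and the promoter region at 0 is above 99 in every library.

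Counted over gene bodies with 10 kb on each side, 14 protein-coding genes held 3 or more members. Pde4d, a cyclic AMP phosphodiesterase, had 6 of its 41 shared regions fall and 1 rise. Trak1, an adaptor that links mitochondria to kinesin, had 5 of 14, Baz2b, a bromodomain protein, 4 of 19, and Prex1, a Rac exchange factor, 3 of 12. The chromatin regulator Ankrd11 had 3 of 12, the B-cell repressor Bach2 3 of 23, the calcineurin subunit Ppp3ca 3 of 21 and the potassium channel Kcnj10 3 of 6. Ranked by area per base, the gap was below 0 at 2 members each of Pde4d, Trak1 and Bach2 and at 1 each of Baz2b and Ppp3ca. The gene model Gm20388, with 10 of 153, spans other genes, and so do long models of Fgfr2. Of protein-coding genes, 102 held 2 members, and 436 members had no protein-coding gene within 10 kb.

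Gene lists by role were set beside the background of 3.2% falling and 1.5% rising. The 20 lists held 582 genes and 2478 shared regions, of which 82 fell (3.31%) and 46 rose (1.86%), so the lists together sat at the background. Growth factor and kinase signalling genes had 19 of 309 regions fall (6.15%, interval 3.97 to 9.40) and 5 rise. Over this list the mean WT less the mean cKO percentile had a median of 1.22 points, against 1.13 over all shared regions. Syk, the kinase below Fc receptors, had an intron 1 region at 53.6 and 53.3 in WT against 3.20 and 9.98 in cKO, and 1 of 9 shared regions there fell. Prkcb (protein kinase C beta) had an intron 2 region at 52.3 and 54.1 against 5.23 and 10.8, and Rasgrp1, a Ras activator, an intron 5 region at 78.9 and 78.9 against 31.4 and 45.1. Ptpro, a receptor tyrosine phosphatase, had 74.8 and 77.3 against 6.13 and 42.5, where the cKO libraries lay far apart.

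Macrophage lineage transcription factors had 8 of 118 regions fall (6.78%, 3.48 to 12.8) and 0 rise. In intron 3 of Zeb2, a zinc-finger repressor needed for macrophage identity, the percentiles were 64.0 and 64.6 in WT against 12.5 and 28.8 in cKO. Of 10 shared regions at Zeb2, 1 fell and 0 rose. The promoter regions at Zeb2 each had both cKO percentiles above both WT, one with 43.0 and 52.1 in WT against 63.8 and 57.2. Runx1 had a pair of intronic members, one of them at 47.9 and 58.0 against 24.0 and 19.4. Regions at Mitf (43.7 and 55.2 against 12.2 and 9.61), Fli1 (32.9 and 41.5 against 2.07 and 5.64), Batf3, Bach1 and Jdp2 made up the rest. All 8 were outside promoters, and 1 of 14 shared regions at Mitf and 1 of 15 at Fli1 fell.

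Small GTPase and actin regulators had 13 of 385 fall, with 3 at Prex1 and 1 at Dock8, an activator of Cdc42 (43.7 and 52.5 against 0.583 and 8.53). Integrin and adhesion genes had 5 of 240, among them an intron 1 region of the kinase Src (75.9 and 73.2 against 27.7 and 35.1) that holds an NF-kB and an ETS-IRF match. Fatty acid and glycerolipid genes had 5 of 122, including Acsl1, which makes acyl-CoA (46.3 and 56.6 against 1.35 and 11.2), and the Lpin1 region. At the NF-kB subunits and inhibitors 2 of 75 fell and 3 rose. The falling pair were near Nfkb1 (76.8 and 80.1 against 24.5 and 36.6) and in intron 2 of Tnfaip3, the inhibitor A20 (85.0 and 83.9 against 47.6 and 45.9). Of 12 shared regions at Nfkb1, 1 fell and 1 rose.

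The other lists lay on both sides of the background. Interferon-stimulated genes had 1 of 157 regions fall (0.637%) and 8 rise (5.10%), and the mean WT less the mean cKO percentile over their regions had a median of −2.00 points against 1.13 over all shared regions. The 1 member was near Mx1, within the gene Fam3b. Of the 6 shared regions at Mx1, 1 fell and 1 rose. The rising one was a promoter region, with WT percentiles of 3.24 and 8.95 against 40.3 and 52.1 in cKO. Another promoter region at Mx1 neither fell nor rose. Inflammatory cytokines and mediators had 1 of 78 fall and 0 rise, chemokines and receptors 3 of 96 (3.12%), Toll-like receptor signalling 4 of 107 (3.74%), alternative activation 4 of 68 (5.88%) and osteoclast genes 3 of 73 (4.11%). Sterol synthesis had 1 of 65, cholesterol efflux 2 of 95, lysosome and phagosome 4 of 148 (2.70%), and surface markers 5 of 139 (3.60%). Of the surface marker members, 2 lay at Lyz2, the gene into which Cre is inserted. Cell cycle genes had 2 of 143 fall and 3 rise, and p53 targets and apoptosis regulators each 2 of 113 fall and 2 rise.

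**Figure D5:**
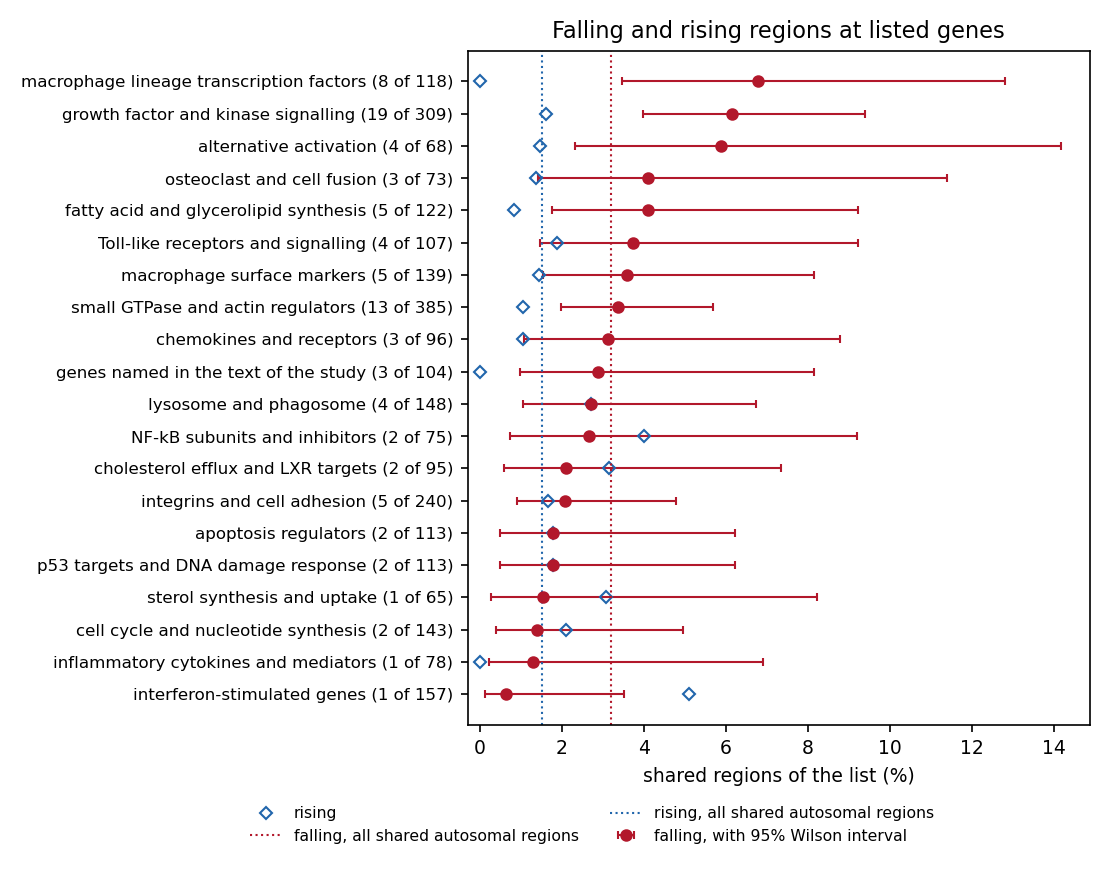
Percent of the shared regions of each of the 20 gene lists by role that fell or rose, with the background of 3.2% and 1.5% drawn as dotted lines and 95% Wilson intervals on the falling values. Lineage transcription factors (6.78%) and growth factor and kinase signalling (6.15%) are highest of these 20 for falling regions, and interferon-stimulated genes (5.10%) for rising regions.

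Among 29 genes named in the study, 3 of 104 shared regions fell and 0 rose. Besides Lpin1 these were a region in intron 3 of Siva1 that lies within 10 kb of Adssl1, an enzyme of purine synthesis (54.5 and 51.7 against 10.2 and 19.7), and one in intron 1 of Atf3, a stress-induced factor (57.2 and 65.2 against 20.5 and 34.7). Marker genes of other cells had few shared regions, so each count rests on a handful. Of these, 1 of 11 fell for T cells (Cd4) and 1 of 17 for B cells (Blnk). It was 1 of 3 for mast cells and basophils (Hdc) and 1 of 6 for fibroblasts (Pdgfrb). For neutrophils it was 0 of 14, and for erythroid cells and megakaryocytes 0 of 16. The part of other cells in the results was not tested.

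The targeted loci were examined for members that could stem from the alleles. Within 100 kb of H3f3a, 2 of 18 shared regions fell, and the second largest gap of all lay 21.7 kb upstream of its start, while the H3f3a promoter region had WT percentiles of 96.0 and 97.2 against 93.4 and 94.1. Within 100 kb of H3f3b, 0 of 10 fell. A region within H3f3b itself (chr11:116023771-116024892) had 94.2 and 95.5 in WT and kept a peak in cKO, at 87.0 and 81.4. The extent of deletion in these libraries was not tested. At Lyz2, the lysozyme gene into which Cre is inserted, 2 of 14 fell. One at chr10:117274854-117279104 had a WT percentile of 99.98 in both libraries against 27.5 and 52.5, with areas of 9097 and 10348 against 366 and 678. The other, in intron 1, had 96.1 and 99.0 against 57.4 and 59.4, and its gap was −36.8 points when ranked by area per base. There a change in the locus itself and an effect of losing H3.3 cannot be told apart.

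Members were spread over all autosomes, from 61 of 2634 shared regions on chromosome 5 (2.32%) to 150 of 3633 on chromosome 2 (4.13%). Chromosome X was left out of the set by the rule. It had 1114 regions with a peak in all 4 libraries, of which 16 met the same limit downward and 13 upward.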

How the data were processed

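ATAC-seq was performed on 50000 cells per reaction from 2 WT and 2 cKO BMDM cultures. Per the labels, reads were aligned to mm10 with Bowtie2 2.5.1 and peaks were called with Genrich, with default settings per the study's methods, and the lists were deposited per library. Filters on reads, removal of duplicates and the shift for the transposase are not given in the sources used here beyond that. The deposited signal values are peak areas, the deposited −log10 p values belong to the summits, and 2 deposited score columns (one capped, one empty of q-values) were not used. None is normalized between libraries, and no read counts were used, so depth and its precision are unknown.

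Across the 4 lists, peaks sharing 1 bp or more were joined, which gave 71243 regions, with Python 3.11.15, numpy 2.4.6 and pandas 2.3.3. A region took the highest percentile of its peaks in each library. Groups came from the labels, and merging and ranking were tested on simulated peaks. Region centres were classed by GENCODE annotation of mm10 as promoter, exon, intron or intergenic in that order, with starts of all gene types. A gene owned regions in its body or within 10 kb, and nearest starts are those of protein-coding genes. Motifs were searched on both strands 100 bp to each side of the summit in the RefSeq sequence of the same build. Intervals are 95% Wilson intervals. With 2 libraries per genotype, no test between genotypes was made. The members, gene lists and motifs were chosen with earlier results of these data known. Regions named are the 20 largest gaps, up to 10 promoter members, genes with 3 or more members, at most 4 per list, and those nearest the limit, and 1 region that this rule names is not reported here. The comparisons were repeated with other peak sets, ranks, limits, promoter and motif windows, and without each library. The ETS-IRF, CTCF and RUNX shares under each setting, and those of rising regions, were added after seeing the data.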

Additional observations from a re-analysis of the deposited data

How the results depend on the processing

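The number of falling regions was 817 with peaks above the list median, 2345 with area per bp, 3476 with the difference of means, 439 with a limit of 30 points, and 1460 to 4350 when 1 library was left out. With the replicate number as a block it was 2269. The 2 pairs share only a number, so the block is no pairing of mice.

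The promoter share was 10.6% with stricter peaks, 7.63% with area per bp, 7.36% with means, 17.1% with promoters widened to 2.5 kb in each direction, 3.51% with protein-coding genes only, and 5.96% to 8.41% with 1 library left out. Of all shared regions, promoters were 30.5% with stricter peaks, 20.1% with area per bp and with means, and 19.2% to 20.4% with 1 library left out. Their share is not given for the wider promoter or for protein-coding genes only. The intron share was 49.3% with stricter peaks, 48.2% with the wider promoter and 49.7% with protein-coding genes. The intergenic share was 31.0% with area per bp, 42.6% with protein-coding genes, and 30.8% to 33.6% with 1 library left out. With a motif window of 50 bp the PU.1, C/EBP, AP-1 and NF-kB shares were 9.09%, 7.80%, 5.08% and 5.01%. The shares of all shared regions are not given for that window, and those of the wider window are no comparison for it. C/EBP was 17.8% at 30 points and AP-1 10.2% with stricter peaks. NF-kB was 6.91% with area per bp, 7.31% with means, 12.1% at 30 points, and 7.23% to 8.9% with 1 library left out. The share of members within 10 kb of another was 10.3% with area per bp, 8.47% with −log10 p, 8.57% with ranks among shared regions, 13.8% with means, 9.78% with the replicate block, 2.96% at 30 points, 22.5% at 50 kb, and 6.16% to 15.2% with 1 library left out. Apart from 50 kb, the share of all shared regions is not given for these settings. The number of falling regions also differed between them, so the values do not show whether nearness was stronger or weaker. In the 15 settings in which both sets were counted, rising regions had the highest and falling regions the lowest AP-1 share, with all shared regions between them, and NF-kB was in the opposite order. ETS-IRF and CTCF were not in the same order of all 3 sets throughout. With stricter peaks ETS-IRF was 9.06% of falling, 5.79% of rising and 5.74% of all shared regions, and CTCF was 0.490%, 1.76% and 1.22%, and in every such setting the falling share was the highest of the 3 for ETS-IRF and the lowest for CTCF. RUNX was lower in falling than in all shared regions except at 30 points.

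With area per bp, gaps below 0 were found at Lyz2 intron 1 (−36.8), Bach2 (−10.1 and −6.68), Hmx2 (−8.46), the Lrfn4 promoter in Pcx (−2.27), Ppp3ca (−15.2), Gse1 (−1.63), Trak1 (−24.9 and −7.61), Baz2b (−11.3), Pde4d (−25.3 and −21.3), Tfeb (−7.97), Ccr3 (−2.24), Ctsc (−10.9), Scarb2 (−2.06), Cacnb4 (−9.38), Gm10643 (−0.926) and Arfgap1 (−1.89), and with −log10 p at Bach2 (−6.18). The cause was not tested. Depth is unknown, and 2 libraries per genotype give no measure of the spread between mice beyond their own difference.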
